A study of Saccharomyces cerevisiae with 40 samples.

Results

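Ino2 and Ino4 are basic helix-loop-helix transcription factors (TFs) of Saccharomyces cerevisiae that bind DNA as a heterodimer at the inositol-responsive element of phospholipid genes, whose consensus motif is CACATGC. Motifs of the form CANNTG, called E-boxes, are the class of sites that helix-loop-helix proteins recognize. The genes described here had an Ino2 binding event listed for them and no Ino4 event listed for them. They are 256 of the 832 targets of Ino2 and of the 7124 genes named in the tables. They were chosen by measured values, since a gene belongs to them when it has an Ino2 value in at least 1 of 4 growth conditions and no Ino4 value in any. Its Ino2 conditions and its Ino2 strength come from the values that chose it, and these are therefore given as a description with no test. The other 576 targets of Ino2, which were also listed for Ino4, are the comparison and are called shared genes.

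Binding was mapped by ChIP-exo, in which an exonuclease trims the immunoprecipitated DNA up to the cross-linked protein, in 40 samples: 5 TFs (Ino2, Ino4, Hap1, Oaf1, and Pip2), each with an in situ C-terminal TAP tag in its own strain of CEN.PK background, under 4 conditions with 2 samples each. All cultures were chemostats, diluted at 0.1 h−1. N-lim was limited by nitrogen at 6% glucose and Ox,Glu-lim by glucose and oxygen at a labelled 1% glucose with Tween 80 and ergosterol added, and both gave fermentative growth; Et-lim was limited by 0.5% ethanol and Glu-lim by 0.75% glucose, and both gave respiratory growth. The study's methods give both glucose-limited media the same glucose level, which differs from the label of Ox,Glu-lim. The signal is the log2 of the signal-to-noise ratio, log2(S/N), of the highest event of a gene, and only events above 1, an S/N of 2, were listed within 1200 bp of a gene. A gene without an entry is therefore below that limit or outside that distance, and is not shown to be unbound. The duplicates were pooled by the authors, so that each value stands alone, with no spread between replicates, and the sequencing depth is unknown.

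The sequences under the events are shown first, since those with the highest values held neither CACATGC nor CACATG. Each line gives 41 bases of the + strand of the R64 reference, 20 on each side of the event, with the k-mer that the event caller GEM assigned there in capitals, and all in lower case where it assigned none. These are the highest events of the 12 genes with the highest Ino2 values, and that of HAP4:
CIT2, chrIII:122698-122738: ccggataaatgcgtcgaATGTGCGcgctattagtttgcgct
ACH1, chrII:193766-193806: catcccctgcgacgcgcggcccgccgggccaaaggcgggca
REB1 and YBR051W, chrII:337044-337084: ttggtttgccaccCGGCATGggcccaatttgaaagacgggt
YBR053C, chrII:341876-341916: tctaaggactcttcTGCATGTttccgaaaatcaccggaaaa
FTR1 and LSM5, chrV:461957-461997: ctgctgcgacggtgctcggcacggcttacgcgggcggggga
ZWF1, chrXIV:198708-198748: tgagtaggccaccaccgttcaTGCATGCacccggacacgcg
HOR7, chrXIII:774426-774466: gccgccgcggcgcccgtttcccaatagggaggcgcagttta
FCY2, chrV:268588-268628: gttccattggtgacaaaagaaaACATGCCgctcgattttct
FUI1 and PRE7, chrII:140681-140721: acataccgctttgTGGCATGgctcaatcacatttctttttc
HAP4, chrXI:231528-231568: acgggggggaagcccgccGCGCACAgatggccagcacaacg
These are weaker events that do hold the full CACATGC, in either direction:
CIT1 and tN(GUU)N2, chrXIV:631978-632018: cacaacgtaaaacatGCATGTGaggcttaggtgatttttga
CWP1 and YKL096C-B, chrXI:260289-260329: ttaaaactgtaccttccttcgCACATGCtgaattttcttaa
RRP14 and TEF4, chrXI:282688-282728: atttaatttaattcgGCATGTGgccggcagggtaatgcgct
TRP4, chrIV:1183779-1183819: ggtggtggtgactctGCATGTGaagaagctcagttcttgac
Of these first events, that of HAP4 alone held an E-box, CAGATG, while those of REB1, YBR053C, ZWF1, FCY2, and FUI1 held the 5 bases CATGC, which are the 3′ part of CACATGC, and those of CIT2, ACH1, FTR1, and HOR7 held none of the motifs searched.

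The highest Ino2 values without Ino4 were those of CIT2 and ACH1, followed by the REB1 promoter. CIT2, the peroxisomal citrate synthase of the glyoxylate cycle, had an Ino2 log2(S/N) of 3.76 at Et-lim and 2.08 at Glu-lim, at the same base 391 bp upstream of the gene. ACH1, which encodes acetyl-CoA hydrolase, had 3.70 at Et-lim and 2.04 at Glu-lim, 336 and 347 bp upstream. Both genes were highest on ethanol and were not listed in either fermentative condition. REB1, a general DNA-binding regulator of transcription, had 3.46 at Et-lim and 3.14 at Glu-lim, from 1 event that was also listed for YBR051W. YBR053C had 3.45 and 2.17, with events 1146 and 1078 bp upstream. FTR1, the high-affinity iron permease, and the divergent LSM5, a subunit of an RNA-decay complex, shared events of 3.39 at Et-lim and 2.26 at Glu-lim. ZWF1, glucose-6-phosphate dehydrogenase of the pentose phosphate pathway, had 3.03 at Et-lim and 1.87 at Glu-lim, inside the coding sequence of the neighboring NAR1. These genes too had a higher value on ethanol than on glucose under limitation. FCY2, the purine-cytosine permease, differed from them, with 2.87 at Glu-lim, 2.80 at Et-lim, and 2.17 at Ox,Glu-lim, all from 1 base 496 bp upstream. FUI1, the uridine permease, and the divergent PRE7, a proteasome subunit, shared 2.75 at Et-lim and 1.88 at Glu-lim. HOR7, a gene induced by hyperosmotic stress, had 2.87 at Et-lim and no other entry. All of these genes are marked in the plot of the strongest genes, where the ethanol value is the right-most point for most.

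**Figure D1:**
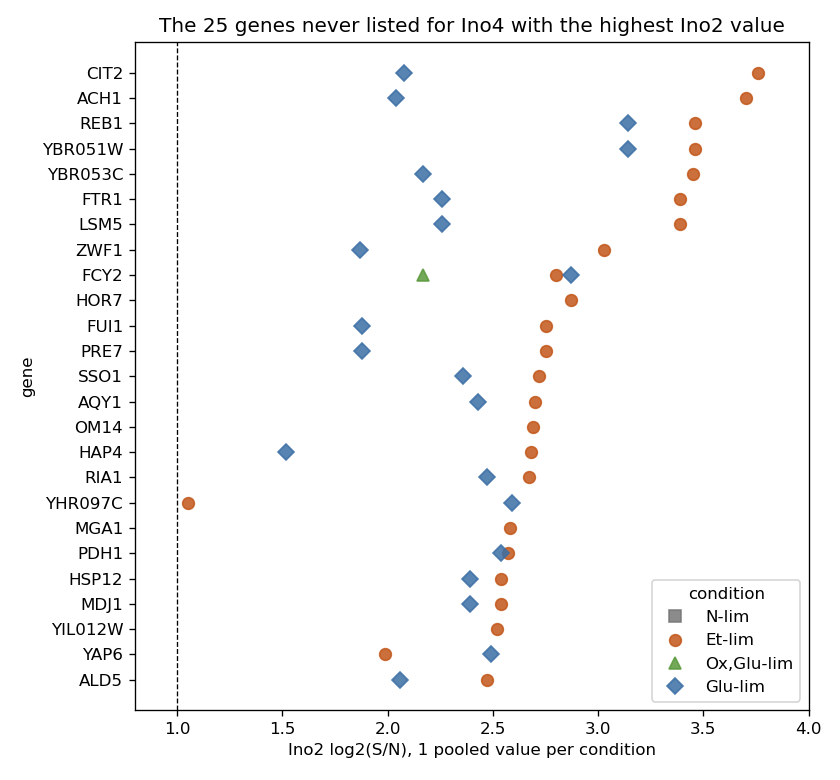
Ino2 log2(S/N) (horizontal axis) of the 25 genes without an Ino4 entry that had the highest Ino2 value (vertical axis), with 1 pooled value for each condition in which the gene was listed; the dashed line is the limit of listing at 1. CIT2 reached 3.76 at Et-lim and 2.08 at Glu-lim, FCY2 is the only one of them with an Ox,Glu-lim value (2.17), and none has an N-lim value.

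Ino2 strength without Ino4 was low for most of the genes. The highest log2(S/N) of a gene had a median of 1.45 over the 256 genes, with a lowest of 1.00 and a highest of 3.76, and 2.91 over the 576 shared genes, with 1.05 and 8.27. By condition, the medians of the 256 genes were 1.11 at N-lim (6 genes) and 1.58 at Ox,Glu-lim (21 genes) under fermentative growth, and 1.43 at Et-lim (189 genes) and 1.38 at Glu-lim (144 genes) under respiratory growth. Those of the shared genes were 2.80, 2.62, 2.81, and 2.65 in the same order. Of all Ino2 targets with a highest value up to 1.5, 141 of 194 (72.7%) were never listed for Ino4. That share was 68 of 150 (45.3%) between 1.5 and 2, 39 of 201 (19.4%) between 2 and 3, and 8 of 133 (6.02%) between 3 and 4. None of the 154 Ino2 targets above 4 lacked an Ino4 entry. The members nearest to the limit were YJL016W with 1.003 and RAS2 and YNL097W-A with 1.017, while SUE1, HRK1, and PAC1 were shared genes through Ino4 values of only 1.005, 1.009, and 1.009.

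**Figure D2:**
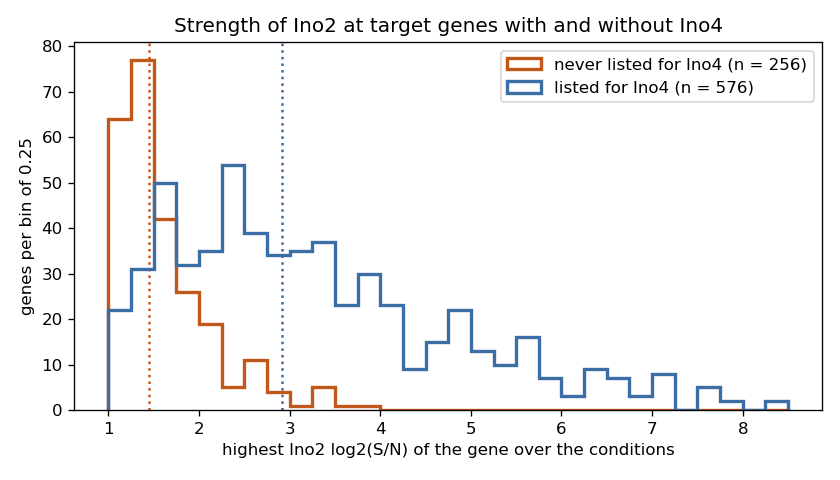
Number of genes (vertical axis) by the highest Ino2 log2(S/N) over the 4 conditions (horizontal axis, bins of 0.25) for the 256 genes never listed for Ino4 and the 576 listed for it, with dotted lines at the medians of 1.45 and 2.91. The genes without Ino4 crowd the limit of listing at 1, and none lies above 4.

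The genes were listed mostly under respiratory growth. In any condition, 11.7% of the genes in the tables were Ino2 targets, and by condition 10.2% at Et-lim, 8.84% at Glu-lim, 3.47% at Ox,Glu-lim, and 1.87% at N-lim; the rule used these values, so nothing is read from the counts of the genes against them. Of the 256 genes, 229 (89.5%) were listed at Et-lim or Glu-lim only, 11 (4.30%) at N-lim or Ox,Glu-lim only, and 16 (6.25%) in both kinds of growth. Of the shared genes, 322 (55.9%) were listed in respiratory conditions only and 240 (41.7%) in both kinds. The patterns were Et-lim alone for 96 genes, Et-lim with Glu-lim for 80, and Glu-lim alone for 53. No gene without Ino4 was listed for Ino2 in all 4 conditions, against 98 (17.0%) of the shared genes. A single condition accounted for 160 (62.5%) of the 256 genes and 110 (19.1%) of the shared genes.

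The Ino4 tables at Et-lim and N-lim held fewer genes than those of the other conditions. Ino4 was listed for 178 genes at Et-lim, with a median log2(S/N) of 4.68 and a lowest value of 1.18, against 534 genes at Glu-lim, 486 at Ox,Glu-lim, and 166 at N-lim, where the medians were 2.50, 2.24, and 2.98. Ino2 was listed for 724 genes at Et-lim. Of the Ino2 targets at Et-lim, 171 (23.6%) were listed for Ino4 in the same condition, while the share was 444 of 630 (70.5%) at Glu-lim, 209 of 247 (84.6%) at Ox,Glu-lim, and 98 of 133 (73.7%) at N-lim. With the Et-lim tables of both TFs left out, a choice made after seeing the data, 164 genes had Ino2 and no Ino4, and 135 of them (82.3%) were listed at Glu-lim only. That count drops genes through the Ino2 table and adds genes through the Ino4 table at once, so it does not give the share of either.

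**Figure D3:**
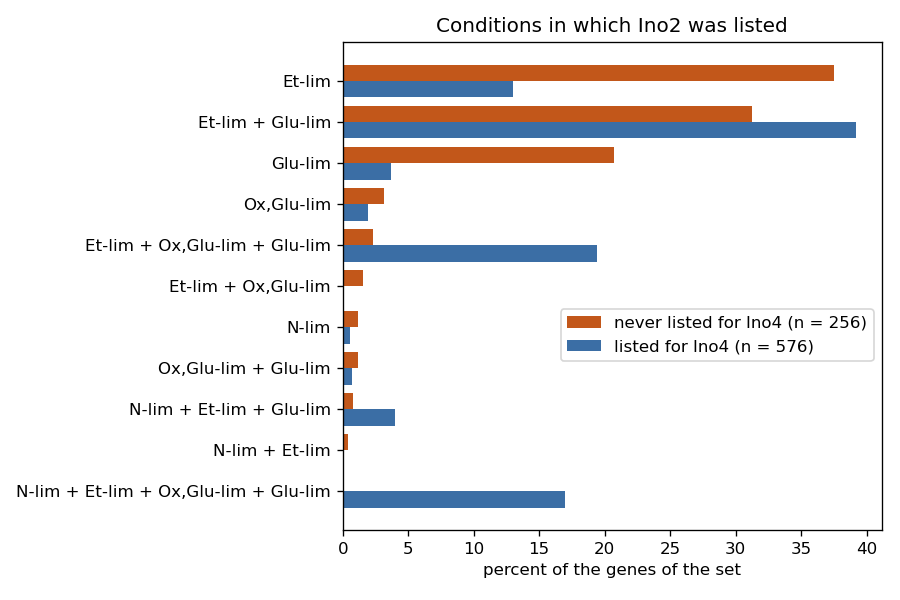
Percent of genes (horizontal axis) by the conditions in which Ino2 was listed (vertical axis), for the 256 genes never listed for Ino4 and the 576 listed for it. Et-lim alone held 37.5% and 13%, Glu-lim alone 20.7% and 3.65%, and all 4 conditions 0% and 17.0%.

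Few of the genes were listed in fermentative conditions, and those at N-lim had low values. At N-lim, YEL073C had 1.36 and also 1.04 at Et-lim. AAC3, an ADP/ATP carrier of the mitochondrial inner membrane, and the divergent ribosomal protein gene RPL19A shared values of 1.13 at N-lim, 1.44 at Et-lim, and 1.12 at Glu-lim. BAP3, an amino acid permease, and HEM12, a heme synthesis enzyme, shared 1.09 at N-lim, and RPL7A had 1.07 there, with no entry elsewhere. These 6 genes are all those with an N-lim value, and each lies close to the limit. At Ox,Glu-lim alone, CIT1, the mitochondrial citrate synthase, and the asparagine tRNA gene tN(GUU)N2 shared 1.69, and YBR178W had 1.63. GRX6, a glutaredoxin, had 1.91 at Ox,Glu-lim, 1.21 at Et-lim, and no entry at Glu-lim. At Glu-lim alone the highest were INH1, the inhibitor of the mitochondrial ATP synthase, with 2.05, YIR017W-A with 1.91, and HXT2, a hexose transporter, with 1.84. At Et-lim alone they were HOR7 with 2.87, OM14, a mitochondrial outer membrane protein, with 2.69, and MGA1, a protein with a heat shock factor type DNA-binding domain, with 2.58.

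Where a gene was listed under both respiratory conditions, the ethanol value was usually the larger. Of 88 such genes without Ino4, 60 (68.2%) were higher at Et-lim, with a median difference, Et-lim minus Glu-lim, of 0.19 and a range from -1.54 to 1.68. Of the 459 such shared genes, 303 (66%) were higher at Et-lim, with a median of 0.29. The lowest difference was that of YHR097C, with 1.05 at Et-lim and 2.59 at Glu-lim, and the highest that of CIT2. Each condition has its own noise level, and with 1 pooled value for each condition no difference could be tested. The events lay at the same base in both conditions for 49 of the 88 genes and within 20 bp for 61 (69.3%, exact 95% interval 58.6 to 78.7%). Among shared genes, 369 of 459 (80.4%, 76.5 to 83.9%) lay within 20 bp. AQY1, an aquaporin gene, had its events farthest apart, 2.70 at Et-lim and 2.43 at Glu-lim, with 337 bp between them. Intervals here and below cover counting error only and take genes or events as independent, although 87 of the 215 distinct events were listed for a pair of genes without Ino4.

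All events of known strand lay upstream of the gene they were listed for. The same held for every such event of the shared genes, so nothing about binding is read from it. Over 343 Ino2 entries of the genes with a strand in the reference, the median distance to the gene start was 415 bp, from 103 to 1176 bp, and 257 (74.9%, 70 to 79.4%) lay within 600 bp. For the shared genes the median was 460.5 bp, and 869 of 1284 entries (67.7%, 65.0 to 70.2%) lay within 600 bp. The share of the genes without Ino4 was lower at stricter limits on log2(S/N). It was 65.1% above 1.5 for both TFs, 59.5% above 2 for both, and 64.5% above 2 for Ino2 alone. The shared genes were not recounted at these limits, so no difference in position is read from the shares. Some events fell inside the coding sequence of a neighbor: 39 of 215 distinct events (18.1%, 13.2 to 24.0%) of the genes without Ino4 and 125 of 637 (19.6%, 16.6 to 22.9%) of the shared genes. Within 200 bp of a tRNA gene lay 5 events (2.33%, 0.759 to 5.34%) and 6 events (0.942%, 0.346 to 2.04%), respectively.

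Ino4 events listed for other genes were mostly far away. The choice of the genes largely sets this, since an Ino4 event above the limit within 1200 bp of a gene would mostly be listed for it. The distances and their contrast with shared genes are therefore a description only. An Ino4 event of any condition lay within 20 bp of the Ino2 event for 1 of the 256 genes, USB1, within 200 bp for 7 genes (2.73%), and within 1200 bp for 22 genes (8.59%). Among shared genes, 497 of 576 (86.3%) had an Ino4 event within 20 bp. USB1, whose product trims a spliceosomal RNA, had 1.28 at Glu-lim, 112 bp upstream. The same event was listed for CKI1, choline kinase of phospholipid synthesis, whose highest Ino4 value was 2.57. The nearest Ino4 event of any condition lay 16 bp away, and the nearest at Glu-lim 69 bp away. GLK1, HST2, YIL012W, and YMR265C also shared an Ino2 event with a gene that was listed for Ino4, with 136, 205, 245, and 110 bp between the Ino2 and Ino4 events. At these 5 genes the Ino4 event was listed for the neighbor only.

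A k-mer from GEM was given about as often at these genes as at the shared ones, but CACATGC made up less of them. A k-mer was given for 257 of 360 Ino2 entries (71.4%, 66.4 to 76.0%) of the genes without Ino4 and for 1004 of 1374 (73.1%, 70.6 to 75.4%) of the shared genes. Of the k-mers of the genes without Ino4, 160 (62.3%, 56.0 to 68.2%) held CATG, against 646 (64.3%, 61.3 to 67.3%) of those of the shared genes. CACATGC, read in either direction, was the most frequent k-mer in both sets, with 23 entries (8.95%) and 235 entries (23.4%). Next at the genes without Ino4 were CATGCGC with 15 entries (5.84%, against 1.69% of the shared genes' k-mers), GCGCACA with 13 (5.06%, against 0.398%), and both CACGTGC and CATGCCG with 11 each (4.28%, against 7.97% and 0.896%). Entries repeat an event for each gene of a pair and for each condition. The 360 entries come from 215 distinct events, and the 1374 of the shared genes from 637. These k-mer counts are therefore not counts of sites, and their intervals are too narrow. In all, 56 kinds of k-mer stood in the 257 entries and 63 kinds in the 1004 entries of shared genes. The k-mer of every one of the 257 entries was found in the 41 bases around the event. GEM assigned both the event and the k-mer, so this checks only that positions were read correctly.

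CACATGC and the E-box were less frequent around the events of these genes than around those of the shared genes, by intervals that do not overlap. Searched on both strands of the 41 bases, CACATGC stood at 10 of 215 distinct events (4.65%, 2.25 to 8.39%) against 100 of 637 (15.7%, 13 to 18.8%) for shared genes. CACATG, its first 6 bases, stood at 33 (15.3%, 10.8 to 20.9%) against 184 (28.9%, 25.4 to 32.6%), and any E-box CANNTG, which includes CACATG and CACGTG, at 61 (28.4%, 22.5 to 34.9%) against 315 (49.5%, 45.5 to 53.4%). CACGTG stood at 7 (3.26%, 1.32 to 6.59%) against 46 (7.22%, 5.34 to 9.52%). CATGC, which was added after seeing the sequences and is part of CACATGC, stood at 64 (29.8%, 23.7 to 36.4%) against 221 (34.7%, 31.0 to 38.5%). In 72007 windows of 41 bases from the upstream regions of all protein-coding genes of the reference, CACATGC stood in 0.281%, CACATG in 1.17%, CACGTG in 0.539%, CANNTG in 12.7%, and CATGC in 3.79%. These windows were laid without regard to events, while GEM assigned k-mers at the events, so they are a background and not an independent comparison. A match of letters is not a measured site. The sets differ in strength, and the comparison is therefore given below by strength as well.

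From 2 to 4 in log2(S/N), CACATG and the E-box were less frequent at genes without Ino4 than at shared genes, by intervals that do not overlap. At the highest event of each gene, CACATG stood at 2 of 38 distinct events (5.26%, 0.644 to 17.7%) of genes with a log2(S/N) from 2 to 4, at 12 of 51 (23.5%, 12.8 to 37.5%) between 1.5 and 2, and at 19 of 94 (20.2%, 12.6 to 29.8%) up to 1.5. For shared genes these shares were 57 of 200 (28.5%, 22.4 to 35.3%), 17 of 61 (27.9%, 17.1 to 40.8%), and 8 of 39 (20.5%, 9.30 to 36.5%). The E-box stood at 6 of 38 (15.8%, 6.02 to 31.3%) events from 2 to 4 and at 31 of 94 (33.0%, 23.6 to 43.4%) up to 1.5, against 101 of 200 (50.5%, 43.4 to 57.6%) and 19 of 39 (48.7%, 32.4 to 65.2%) for shared genes. Below 2 the intervals of the sets overlap, and for CACATG at genes without Ino4 the intervals from 2 to 4 and up to 1.5 overlap as well. CATGC stood at 13 of 38 events (34.2%, 19.6 to 51.4%) of genes without Ino4 from 2 to 4 and at 25 of 94 (26.6%, 18.0 to 36.7%) up to 1.5. For shared genes it stood at 66 of 200 (33.0%, 26.5 to 40.0%) and 13 of 39 (33.3%, 19.1 to 50.2%), so for CATGC the intervals of the sets overlap. All 10 events with CACATGC belong to genes under 2, with the highest values at CWP1 (1.81) and TRP4 (1.76). The median GC content of the 41 bases was 56.1% at genes without Ino4 and 48.8% at shared genes from 2 to 4, and up to 1.5 it was 51.2% and 46.3%. Whether base composition has a part in the difference was not tested.

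**Figure D4:**
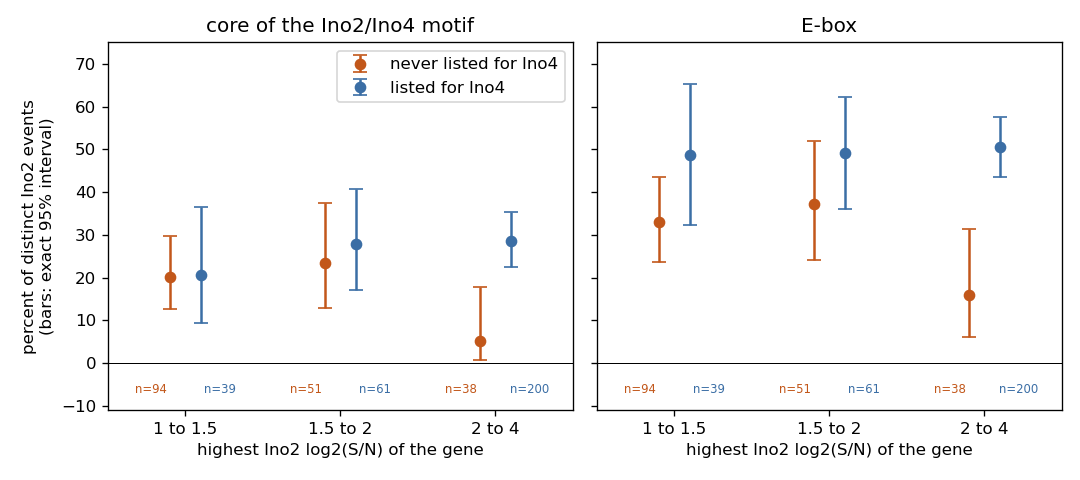
Percent of distinct Ino2 events (vertical axis) with the first 6 bases of the Ino2-Ino4 motif (left) and with an E-box (right) within 20 bp, by the highest Ino2 log2(S/N) of the gene (horizontal axis); points are shares, bars exact 95% intervals, and n the number of events. From 2 to 4, genes never listed for Ino4 had 5.26% and 15.8%, and genes listed for it 28.5% and 50.5%.

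By condition, CATGC was more frequent at the few Ox,Glu-lim events than at those of Et-lim, while the other motifs varied. CATGC stood at 10 of 14 distinct events at Ox,Glu-lim (71.4%, 41.9 to 91.6%), 36 of 135 at Et-lim (26.7%, 19.4 to 35.0%), and 39 of 105 at Glu-lim (37.1%, 27.9 to 47.1%). Shared genes had the same order, with 45.6% (37.7 to 53.7%), 36.4% (31.5 to 41.5%), and 39.7% (34.5 to 45.1%), and their intervals overlap. CACATGC stood at 3 of the 14 events at Ox,Glu-lim (21.4%, 4.66 to 50.8%) and at 6 of 135 at Et-lim (4.44%, 1.65 to 9.42%), and at shared genes in 28.8% and 16.3% of events. CANNTG stood at 5 events at Ox,Glu-lim (35.7%, 12.8 to 64.9%) and at 36 at Glu-lim (34.3%, 25.3 to 44.2%), and CACGTG at 0 of 14 (0 to 23.2%) and 6 of 105 (5.71%, 2.13 to 12.0%). The events at Ox,Glu-lim include those of CIT1, RRP14, and RGT1, the repressor of hexose transporter genes. Counted by entries, which repeat an event for each gene of a pair, 16 of 19 k-mers at Ox,Glu-lim held CATG, and at Et-lim 68 of 122.

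The other TFs are zinc cluster proteins: Hap1 responds to heme and oxygen, and Oaf1 and its partner Pip2 respond to fatty acids. Hap1 and Oaf1 were listed for more of the genes than Pip2 was. Hap1 was listed in any condition for 70 of the 256 genes (27.3%, 22.0 to 33.2%), against 6.64% of all genes of the tables and 33.7% (29.8 to 37.7%) of the shared genes. Oaf1 was listed for 59 (23.0%, 18.0 to 28.7%), against 6.34% of all genes and 35.6% (31.7 to 39.7%) of the shared genes. Pip2 was listed for 18 (7.03%, 4.22 to 10.9%), against 3.3% of all genes and 8.85% (6.66 to 11.5%) of the shared genes. Genes with no Ino2 entry were listed for Hap1, Oaf1, and Pip2 in 3.32%, 2.99%, and 2.64% of 6292 cases. Among genes with an Ino2 value under 2, the Hap1 shares were 21.5% (209 genes without Ino4) and 17.0% (135 shared genes), the Oaf1 shares 19.6% and 18.5%, and the Pip2 shares 5.74% and 4.44%, and the intervals overlap for each TF. From 2 to 4, Hap1 was listed for 25 of 47 genes without Ino4 (53.2%, 38.1 to 67.9%) and 94 of 287 shared genes (32.8%, 27.4 to 38.5%), Oaf1 for 18 (38.3%, 24.5 to 53.6%) and 105 (36.6%, 31.0 to 42.4%), and Pip2 for 6 (12.8%, 4.83 to 25.7%) and 25 (8.71%, 5.72 to 12.6%). For Hap1 these 2 intervals overlap by a narrow margin. The sets still differ in strength within this range: genes without Ino4 were 39 of 201 Ino2 targets from 2 to 3 and 8 of 133 from 3 to 4. Both genes of a pair, such as FTR1 and LSM5, are counted for the same events. None of the 3 other TFs was listed for 155 of the 256 genes (60.5%), and all 3 were listed for 7 genes.

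**Figure D5:**
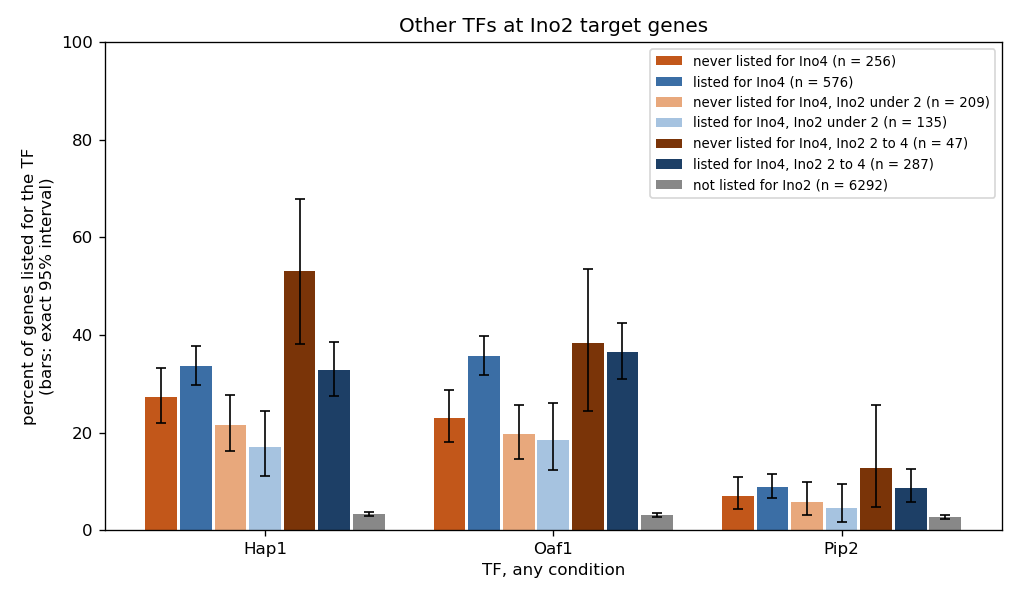
Percent of genes (vertical axis) listed for Hap1, Oaf1, and Pip2 in any condition (horizontal axis), by their Ino2 and Ino4 entries, with exact 95% intervals; pale bars are limited to genes whose highest Ino2 log2(S/N) is under 2, and dark bars to those from 2 to 4. The genes never listed for Ino4 had 27.3%, 23.0%, and 7.03%, and genes not listed for Ino2 had 3.32%, 2.99%, and 2.64%.

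At several genes an event of another TF lay close to the Ino2 event. Each TF has its own noise level, so that values are not ranked between TFs. HOR7 had Hap1 values of 7.64 at Et-lim, 7.35 at Glu-lim, 5.65 at Ox,Glu-lim, and 4.01 at N-lim, from 7 to 21 bp from its Ino2 event of 2.87. AQY1 had Hap1 values of 4.08 at Glu-lim, 3.24 at Ox,Glu-lim, and 3.06 at Et-lim, within 9 bp of an Ino2 event. FTR1 had Hap1 values from 3.59 to 4.60 in 3 conditions and Oaf1 values from 1.27 to 2.67 in all 4, with the nearest at 8 and 3 bp. MGA1 had Oaf1 values of 5.48 at Et-lim, 20 bp from its Ino2 event, and 4.41 at Glu-lim. MDH2, the cytosolic malate dehydrogenase, and the divergent TRM13, a tRNA methyltransferase, had Oaf1 values up to 6.55 and Pip2 values up to 5.62 at Glu-lim beside an Ino2 value of 1.17 at Et-lim. HAP4, the activating subunit of the complex that induces respiratory genes, had Ino2 values of 2.68 at Et-lim and 1.52 at Glu-lim, a Hap1 value of 6.41 at Glu-lim 239 bp away, Oaf1 values of 3.47 to 3.85, and Pip2 values of 3.53 and 1.84. Distances here are between events of any condition, so the Ino2 event and that of the other TF may come from different conditions. At FTR1, for example, the Hap1 event 8 bp away was of Glu-lim and the Ino2 event of Et-lim. Counted in this way, an event of the other TF lay within 20 bp of an Ino2 event at 13 of 70 genes for Hap1 (18.6%, 10.3 to 29.7%), 18 of 59 for Oaf1 (30.5%, 19.2 to 43.9%), and 3 of 18 for Pip2 (16.7%, 3.58 to 41.4%). For shared genes the shares were 25.8% (19.8 to 32.5%), 24.9% (19.1 to 31.4%), and 5.88% (1.23 to 16.2%), and the intervals overlap for each TF. The genes with all 3 other TFs were ZWF1, HAP4, MGA1, YMR102C, MNN4, YJL077W-A, and AIM38, with highest Ino2 values from 3.03 to 1.07.

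By function, the phospholipid and sterol genes that were listed for Ino2 were nearly all shared genes. Over all 7124 genes of the tables, 256 were listed for Ino2 without Ino4 and 576 were shared, so few are expected in a short list. Of 37 phospholipid genes, 20 were shared genes, and only URA8, a CTP synthase, lacked Ino4, with 1.13 at Glu-lim and a higher value, 1.73, at Ox,Glu-lim. Of 29 sterol genes 9 were shared and none lacked Ino4, and of 23 sphingolipid genes 4 were shared and none lacked Ino4. Of 18 genes of fatty acid synthesis and activation 7 were shared, and FAA3, an acyl-CoA synthetase, lacked Ino4 with 1.92 at Et-lim. The citrate and glyoxylate cycles were the reverse, with 4 of 26 genes without Ino4 and 1 shared. These were CIT2, IDH2, a subunit of isocitrate dehydrogenase, with 1.93 at Et-lim and 1.13 at Glu-lim, CIT1, and MDH2. No enrichment was tested, and 30.8% of all Ino2 targets lack Ino4.

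Of 63 genes of plasma membrane transport, 12 lacked Ino4 and 15 were shared. After FTR1, FUI1, and AQY1, the highest was STL1, a glycerol symporter, with 2.16 at Et-lim. Of 68 genes of amino acid synthesis outside the sulfur group, 8 lacked Ino4 and 7 were shared, led by TRP4 of tryptophan synthesis with 1.76 and LYS21 of lysine synthesis with 1.73. Of 37 genes of glycolysis, fermentation, and gluconeogenesis, 4 lacked Ino4 and 13 were shared. These were ALD5, a mitochondrial aldehyde dehydrogenase, with 2.47 at Et-lim and 2.06 at Glu-lim, GLK1, glucokinase, with 1.47, FBP1, the gluconeogenic fructose bisphosphatase, with 1.36, and PDC1, pyruvate decarboxylase, with 1.07, all at Et-lim. Of 42 respiratory chain genes and their regulators, 4 lacked Ino4 and 9 were shared. They were HAP4, NDE2, an external NADH dehydrogenase, with 2.04 at Et-lim, HAP1 itself with 1.18 at Et-lim and 1.82 at Glu-lim, and DLD1, D-lactate dehydrogenase, with 1.31 at Et-lim. Of 39 genes of β-oxidation and peroxins, CRC1, the mitochondrial carnitine carrier, lacked Ino4 and none was shared.

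Regulators, stress, cell wall, and ribosomal genes were present in both sets. Of 75 TFs of nutrient and stress responses, 8 lacked Ino4 and 22 were shared, and after REB1 and MGA1 came YAP6, a bZIP factor, with 1.99 at Et-lim and 2.49 at Glu-lim, and MSN4, a stress activator, with a highest value of 2.03. Of 52 stress effectors 5 lacked Ino4 and 10 were shared, led by HSP12, a small heat shock protein, whose values of 2.54 at Et-lim and 2.39 at Glu-lim were shared with the divergent MDJ1, a mitochondrial chaperone. Of 67 cell wall genes 6 lacked Ino4 and 15 were shared, led by SED1 with 2.15 at Et-lim and 2.14 at Glu-lim and MNN4 with a highest value of 2.04. Of 138 cytosolic ribosomal protein genes 12 lacked Ino4 and 23 were shared, led by RPS8A with a highest value of 1.76. The median highest value of each of these lists was lower without Ino4 than with it: 1.75 and 4.20 for the TFs, 1.48 and 3.71 for stress effectors, 1.84 and 3.47 for cell wall genes, and 1.33 and 2.45 for ribosomal proteins. Over all genes of the sets the medians were 1.45 and 2.91, and the rule used these values, so nothing particular to the lists is read from this. Of the smaller groups, those of sulfur amino acids (2 without Ino4 and 10 shared), nitrogen use (2 and 7), phosphate uptake (2 and 7), hexose transport (2 and 8), the cell cycle (1 and 9), tRNA genes (1 and 9), and snoRNA genes (1 and 1) held few of the 256 genes. In all, 179 of the 256 genes stand in no list.

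A few sets were noticed only after the values were seen. All 4 genes of histones H2A and H2B, HTA1 and HTB1 as 1 divergent pair and HTA2 and HTB2 as the other, were listed for Ino2 without Ino4, and the 4 genes of histones H3 and H4 were not listed for Ino2. HTA1 and HTB1 shared 1.14 at Glu-lim, and HTA2 and HTB2 shared 1.21 at Et-lim and 1.10 at Glu-lim, so the set rests on 2 promoters near the limit. Of 8 heme synthesis genes, HEM12, HEM13 with 1.61 at Glu-lim, and HEM1 with 1.05 at Et-lim lacked Ino4 and none was shared. Of 6 mitochondrial carrier genes, AAC3, PET9 (1.24 at Et-lim), MIR1 (2.30 at Et-lim), SFC1 (1.76 at Et-lim), and CRC1 lacked Ino4 and none was shared. These groups were picked for how they fell, and nothing is read from their counts.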

How the data were processed

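The deposited tables, 1 for each TF, give for each gene and condition a log2(S/N) computed by the authors. They aligned the reads to R64-2-1 using Bowtie2, shortened them at the 3′ end, ran GEM on both duplicates together, related signal to an averaged noise level, and kept the highest event above 1 in the 1200 bp around a gene (SAMtools and bedtools are also named; their versions are not given in the sources used here). The Pip2 log2 columns were read as a score as deposited, because blank cells end their lines early. Position, k-mer, and distance were used as deposited by the authors. From these, 80 columns were used, all pooled over duplicates, which leaves no replicate error and no depth; 1 line naming no gene was left out of each table.

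Here a gene with a value is a target. Genes were matched by name to R64, 241 of the 256 (238 protein-coding, 2 tRNA, 1 snoRNA); the reference is S288C, while the strains are CEN.PK. Event distances were within 1 bp of those computed from the reference gene starts. Motifs were searched on both strands within 20 bp of distinct events, and in consecutive 41-base windows from 101 to 600 bp upstream of every protein-coding gene. Shares carry exact (Clopper-Pearson) 95% intervals. No test was run, since duplicates are pooled and the values chose the genes.

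The genes, the 21 gene lists, and the choices were made with earlier results of these data known. Genes are named by a rule: the 12 highest Ino2 values, the 3 highest of each single condition, those with all of Hap1, Oaf1, and Pip2 and the 4 highest with a pair of them, up to 4 of each list, the edges of the rule, those near an Ino4 event, and targets named in the study. Further genes were chosen after their values were seen. Alternatives were stricter limits on log2(S/N), 600 bp, the nearest gene only, protein-coding genes, other windows, and no genes near an Ino4 event. The member rule, the motif search, and the intervals were tested on simulated data. The work was done in Python 3.11.15 with SciPy 1.17.1 for intervals, matplotlib 3.10.9 for plots, and NumPy 2.4.6 and pandas 2.3.3.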

Additional observations from a re-analysis of the deposited data

How the results depend on the processing

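Of 99 values under an alternative, 67 stayed within the exact 95% interval of the value given (for a count, within 1.5 times it). With a limit of log2(S/N) above 1.5 for both TFs, the median strength became 1.92, the Hap1 share 34.1%, and the Oaf1 share 31.2%. With a limit of 2 for both TFs, 129 genes had Ino2 without Ino4, 93% of them respiratory only, with a median of 2.49 and shares of 43.4% for Hap1, 44.2% for Oaf1, and 14% for Pip2; these include genes whose Ino4 value lies between 1 and 2. With a limit of 2 for Ino2 alone, 47 genes were left, 97.9% respiratory only, with a median of 2.49, CACATG at 4.44% of events, and shares of 53.2%, 38.3%, and 12.8%. Higher limits raise the median by construction. Counting each event for its nearest gene only gave a median of 1.54 and a Hap1 share of 21.8%. A limit of 600 bp gave a Pip2 share of 4.21%. The share of entries within 600 bp upstream moved to 59.5% with a limit of 2 for both TFs and to 81.0% for the nearest gene only. Requiring log2(S/N) above 2 of the other TF gave 16.8% for Hap1 and 15.6% for Oaf1. In 2 alternatives chosen after seeing the data, genes under 2 had a median of 1.36 and a Hap1 share of 21.5%, and leaving out the Et-lim tables gave 164 genes with 82.3% respiratory only. Leaving out genes near an Ino4 event, other windows, and protein-coding genes alone moved none of these values past its interval. No paired analysis was possible because the duplicates are pooled in the deposited tables, and none could be left out.

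A limit is that a gene is called without Ino4 by an absent entry: the tables stop at a log2(S/N) of 1, hold only the highest event of a gene, give no replicate error, and list 178 Ino4 genes at Et-lim against 724 for Ino2. A weak Ino4 event and no event cannot be told apart here.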

Other observations

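The opposite set, genes listed for Ino4 and never for Ino2, had 97 genes. Their highest Ino4 log2(S/N) had a median of 1.69 and reached 4.44. They were listed mostly at Ox,Glu-lim (63 genes) and Glu-lim (32 genes), with 15 at N-lim and 5 at Et-lim. The highest were YHL050W-A with 4.44 at Et-lim, within 40 bp of the start of chromosome VIII, and RPS25B, a ribosomal protein gene, which shared 3.68 at Et-lim and 1.98 at Glu-lim with the neighboring glutamate tRNA gene tE(UUC)L. YAK1, a protein kinase, had 3.46 at N-lim and no other entry.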
